A study of Mus musculus with 6 samples.

Results

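Transcript levels of 28 genes were followed in mouse embryonic stem (ES) cells, the self-renewing pluripotent cells of the early embryo. The genes encode enzymes of serine, glycine, folate, methionine, proline, asparagine and glutamine metabolism, together with the stress transcription factor ATF4 and 3 genes that respond to it. They were taken by symbol from a table of 24043 gene rows, and all 28 were found. RNA-seq compared 2 genotypes with 3 libraries each: cells labelled Q-KO, which per the genotype label lack every G1 cyclin, and wild-type cells. Both were grown with leukaemia inhibitory factor, PD184352 to inhibit MEK and CHIR99021 to inhibit GSK3, and total RNA was sequenced. The labels do not say how many cell lines or cultures stand behind the libraries. The differences below are therefore set against the spread between these libraries, which may be technical in part or, within Q-KO, in whole.

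Serine is made from a glycolytic intermediate, and its conversion to glycine hands a carbon unit to folate. Cytosolic and mitochondrial enzymes pass these units on to nucleotide synthesis and to the methionine cycle, which makes the methyl donor S-adenosylmethionine. ATF4 is a transcription factor whose translation increases when amino acids are scarce or the endoplasmic reticulum is stressed, and many genes of serine, proline and asparagine synthesis are among its known targets. Mouse ES cells are known for a high demand for glycine and one-carbon units, and threonine breakdown is a further source of both in these cells.

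The values are FPKM, a fragment count scaled by gene length and library size, so levels of different genes can be set side by side. Their sum was 525134 to 641715 per Q-KO library and 561019 to 565112 per wild-type library, and the number of fragments behind them is not given in the sources used here. Of the G1 cyclin genes, Ccnd3 (8.29 to 13.2 FPKM against 53.4 to 141), Ccnd1 (7.73 to 9.74 against 21.1 to 40.6) and Ccne2 (2.82 to 3.12 against 6.19 to 7.94) were lower in every library labelled Q-KO than in any wild-type library. Ccne1 ran the other way, at 65.3 to 87.3 FPKM in the libraries labelled Q-KO and 37.5 to 55.9 FPKM in wild-type libraries, and Ccnd2 was under 0.55 FPKM in both. FPKM over a whole gene also counts exons outside a deleted part, so these values do not check which alleles were removed, and every direction given here rests on libraries as they were labelled. ES cell markers were abundant in all libraries (Pou5f1 at 614 to 797 FPKM in Q-KO and 589 to 718 FPKM in wild-type libraries). The summed level of 10 fibroblast feeder markers was 2.08 to 7.95 FPKM in Q-KO and 2.17 to 3.26 FPKM in wild-type libraries, with the highest value in Q-KO replicate 1; 0 to 2 of the 10 were listed at 0 in a Q-KO library and 2 to 3 in a wild-type library. The sums of 4 primitive endoderm markers (1.35 to 1.55 and 1.101 to 1.96 FPKM) and of 4 trophectoderm markers (0.785 to 1.26 and 0.265 to 0.349 FPKM) were low beside these, the last with higher sums in every Q-KO library. Of the feeder markers, 3 named after their values were seen stood out in Q-KO replicate 1. Col1a1, Col1a2 and Col3a1 were at 1.86, 1.16 and 1.35 FPKM there, and at most 0.168, 0.0442 and 0.0322 FPKM in any other library. Thy1 was instead highest in wild-type replicate 3 (2.75 FPKM) and Twist1 in Q-KO replicate 2 (1.30 FPKM). The part of these marker levels in the differences below was not tested. Among wild-type libraries, replicate 3 was unlike the others. Y-linked transcripts were present in it and in the Q-KO libraries, while all 4 Y-linked genes examined were listed at 0 in wild-type replicates 1 and 2. Its genes on chromosomes 8 and 11 were also higher than in wild-type replicates 1 and 2, by a median of 0.25 on the log2(FPKM + 1) scale for each, against -0.12 to 0.03 for the other autosomes and X. Gcsh and Got2 lie on chromosome 8, and Shmt1 and Pycr1 on chromosome 11. Presence of Y-linked transcripts thus partly followed genotype. Its part, and that of the 2 chromosomes, in the differences below was not tested.

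The 28 genes were selected on function and with the FPKM differences between Q-KO and wild-type libraries in view, so those differences are given as a description, without a test. Lower in the Q-KO libraries were parts of 4 branches: the first steps of serine synthesis (Phgdh, Psat1), the glycine decarboxylase Gldc, a pair of folate enzymes (Mthfd1l, Aldh1l1), and the proline enzymes Pycr1 and Prodh. Dld, another glycine cleavage subunit, was lower by less. Among the lower genes, Pycr1 was furthest from wild-type, at 34.4% of the wild-type mean, followed by Gldc at 45.3% and Aldh1l1 at 49.5%. The neighbouring enzymes of the same branches (Psph, Shmt1, Shmt2, Amt, Gcsh, Mthfd2) and the ATF4-responsive genes Asns, Trib3 and Chac1 had overlapping values in the 2 genotypes. Ddit3, which encodes the stress factor CHOP, had the largest positive difference of the 28, with overlapping values. In bulk RNA, fewer cells with a transcript and less of it per cell cannot be told apart.

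For 8 of the 28 genes every Q-KO value lay below every wild-type value, for 2 it was the reverse, and for 18 the groups overlapped. Among all 11573 genes that averaged 1 FPKM or more, 9.44% were separate with the Q-KO libraries below and 18.2% with the Q-KO libraries above. Aldh1l2 was the only gene of the 28 below that level. In limma's fit across all genes, 4.06% of genes passed an adjusted p of 0.05 (3.04% higher and 1.02% lower in Q-KO). 3 of the 27 genes in that fit were past this threshold, Psat1, Gldc and Pycr1, all lower. Nothing is read from these counts, because the genes were proposed from the same contrast. The count was 0 when any of 3 libraries was left out (Q-KO replicate 2, Q-KO replicate 3, wild-type replicate 1). The median log2 difference, Q-KO minus wild-type on the log2(FPKM + 1) scale, was -0.09 over the 27 genes and 0.07 over all genes in the fit.

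**Figure D1:**
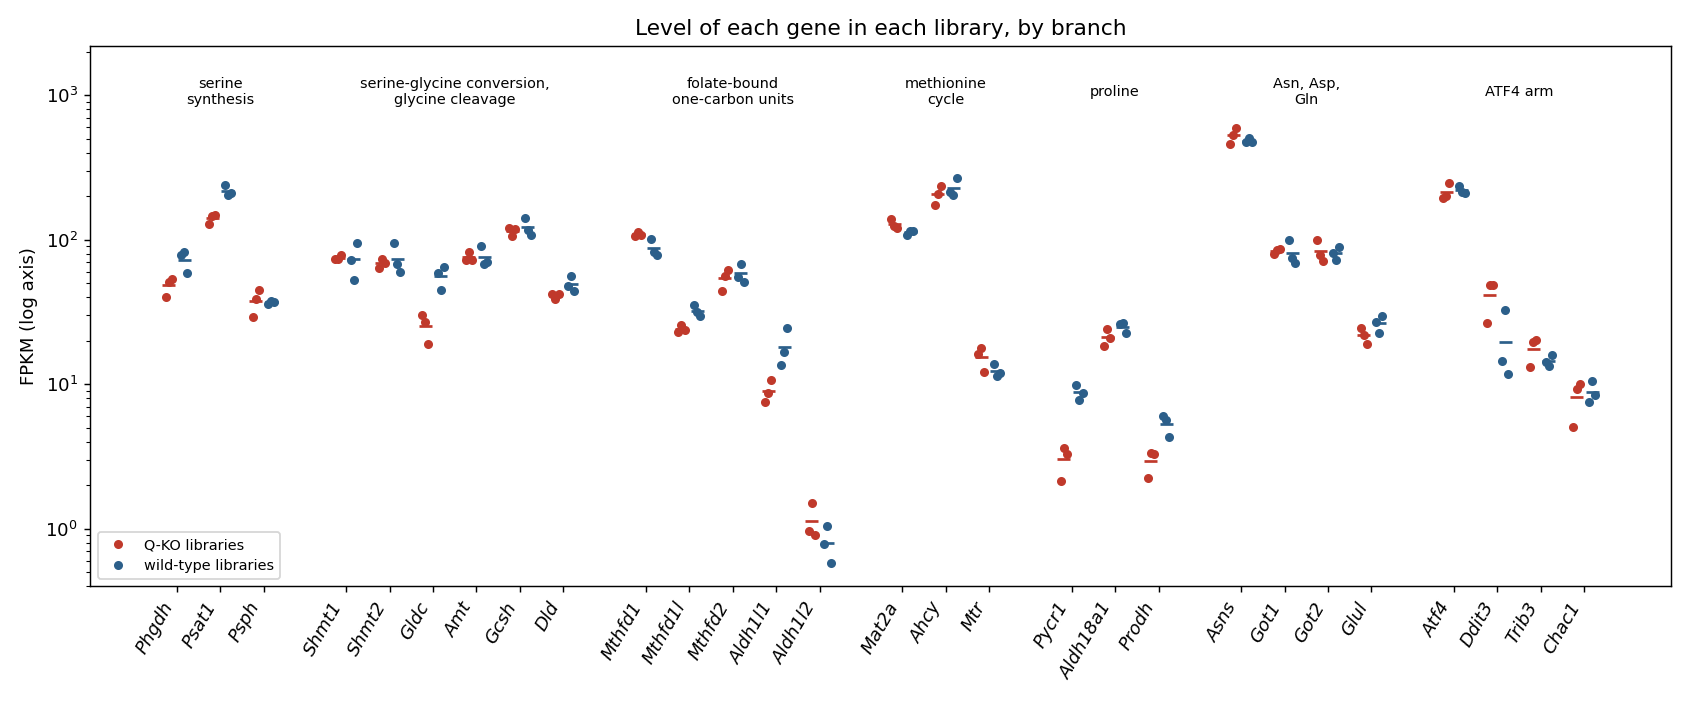
FPKM (log axis) of each of the 28 genes in each library, in the order of their branches, with Q-KO libraries in red left of wild-type libraries in blue and a bar at each group mean (n = 3 each). The red and blue points are separate for Phgdh, Psat1, Gldc, Dld, Mthfd1, Mthfd1l, Aldh1l1, Mat2a, Pycr1 and Prodh, and Asns is the most abundant gene of the set at 464 to 595 FPKM in Q-KO and 475 to 511 FPKM in wild-type libraries.

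Levels spanned a wide range. Asns stood alone at the top with a mean of 509 FPKM over the 6 libraries, above 98.6% of the genes in the fit, and its lowest library (464 FPKM) was above the highest of the next gene, Atf4 (247 FPKM). Aldh1l2 stood alone at the bottom with 0.966 FPKM. All other neighbours in the order of levels had overlapping values over the 6 libraries, from Atf4 (218 FPKM), Ahcy (217 FPKM) and Psat1 (180 FPKM) down to Chac1 (8.46 FPKM), Pycr1 (5.93 FPKM) and Prodh (4.14 FPKM). The libraries of a genotype were not interchangeable for this set. Q-KO replicate 1 was the lowest Q-KO library for 20 of the 28 genes and Q-KO replicate 3 the highest for 13. Among wild-type libraries, replicate 3 was lowest for 14 genes and replicate 1 highest for 11. The summed FPKM of all genes was also lowest in Q-KO replicate 1 and highest in Q-KO replicate 3; its part in these ranks was not tested.

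Promoter sequences are given for members that hold an ATF4 motif. The core of the C/EBP-ATF response element, TGATGNAA read on both strands, is the known docking sequence of ATF4 dimers. It was searched in RefSeq promoters of build GRCm38.p6, from 250 bases before to 50 bases after each start; 27 of the 28 genes had an entry. At least 1 match occurred for Asns, Chac1, Got1, Pycr1 and Trib3, which is 5 of 27 genes (18.5%), against 4.51% of all 27025 genes in the table. Genes that respond to ATF4 were included by choice, so nothing is read from this share. Whether a match bears on the level of its gene was not tested. The 5 promoters with a match are all shown. Each is given 5′ to 3′ on the strand of its gene, with the match in capitals; TTGCATCA and TTACATCA are matches on the opposite strand.
Pycr1: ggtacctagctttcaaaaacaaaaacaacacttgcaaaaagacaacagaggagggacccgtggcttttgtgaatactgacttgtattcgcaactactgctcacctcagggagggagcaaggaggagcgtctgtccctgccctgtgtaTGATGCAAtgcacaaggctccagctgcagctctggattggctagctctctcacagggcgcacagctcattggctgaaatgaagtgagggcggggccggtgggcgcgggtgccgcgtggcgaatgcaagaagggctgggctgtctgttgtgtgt
Asns: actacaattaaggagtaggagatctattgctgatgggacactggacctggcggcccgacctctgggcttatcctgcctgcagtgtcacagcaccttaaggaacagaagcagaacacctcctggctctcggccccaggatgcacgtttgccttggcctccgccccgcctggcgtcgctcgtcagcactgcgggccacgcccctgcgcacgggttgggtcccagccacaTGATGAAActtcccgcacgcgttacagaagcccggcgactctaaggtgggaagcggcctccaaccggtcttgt
Got1: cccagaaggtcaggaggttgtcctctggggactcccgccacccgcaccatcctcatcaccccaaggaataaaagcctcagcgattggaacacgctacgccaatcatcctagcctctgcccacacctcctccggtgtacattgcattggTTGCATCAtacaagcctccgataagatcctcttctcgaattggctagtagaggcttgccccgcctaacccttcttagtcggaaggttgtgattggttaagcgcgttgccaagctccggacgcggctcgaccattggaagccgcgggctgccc
Chac1: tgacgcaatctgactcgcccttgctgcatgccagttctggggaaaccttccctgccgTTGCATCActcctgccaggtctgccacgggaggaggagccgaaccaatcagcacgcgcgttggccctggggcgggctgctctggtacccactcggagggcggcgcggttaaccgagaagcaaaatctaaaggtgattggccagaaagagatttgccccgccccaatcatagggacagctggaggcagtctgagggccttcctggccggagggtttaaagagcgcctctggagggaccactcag
Trib3: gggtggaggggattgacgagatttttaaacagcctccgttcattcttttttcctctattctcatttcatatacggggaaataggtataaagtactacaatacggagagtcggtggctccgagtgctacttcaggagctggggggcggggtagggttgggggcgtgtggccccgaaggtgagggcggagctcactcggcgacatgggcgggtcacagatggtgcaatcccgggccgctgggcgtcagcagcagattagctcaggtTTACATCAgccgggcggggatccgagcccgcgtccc
The windows are chr11:120643699-120643998 (Pycr1, minus strand), chr6:7693160-7693459 (Asns, minus), chr19:43524556-43524855 (Got1, minus), chr2:119350992-119351291 (Chac1, plus) and chr2:152344011-152344310 (Trib3, minus). The match began 103 bases before the start of Pycr1, 102 before that of Got1, 23 before that of Asns and 193 before that of Chac1, and at base 15 after the start of Trib3. The E-box CACGTG, the known binding sequence of MYC, occurred in 1 of the 27 (Aldh18a1) and in 8.09% of all genes. A match is a match of letters only and shows no binding. No promoter of the 27 genes held both motifs.

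Serine synthesis runs through Phgdh, Psat1 and Psph in that order. Phgdh, the dehydrogenase of the first step, was at 40.2, 51.5 and 53.5 FPKM in Q-KO replicates 1, 2 and 3, against 78.0, 82.6 and 58.7 FPKM in wild-type replicates 1, 2 and 3 (log2 difference -0.58, SE 0.18). Psat1, the aminotransferase of the next step, was at 129, 145 and 148 FPKM in Q-KO libraries and 239, 206 and 211 FPKM in wild-type libraries (log2 difference -0.63, SE 0.13). In both, all Q-KO libraries were below all wild-type libraries, and for Phgdh the gap was narrow because of wild-type replicate 3. That library was also the wild-type library nearest to Q-KO for Dld, Mthfd1l and Prodh, but not for Psat1, Gldc, Aldh1l1 and Pycr1. Psph, the phosphatase that releases serine, was at 29.3, 38.7 and 44.7 FPKM in Q-KO libraries and 36.2, 38.0 and 37.1 FPKM in wild-type libraries, and the groups overlapped (log2 difference 0.00 to 2 decimals, SE 0.17). Within a library, the ratio of Psph to Phgdh was 0.772 ± 0.055 in Q-KO and 0.519 ± 0.098 in wild-type libraries (SD, n = 3), with separate ranges. Phgdh was already separate and Psph was not, so this ratio adds no evidence beyond the Phgdh difference. The ratio of Psat1 to Phgdh was 2.93 ± 0.24 and 3.05 ± 0.55, with overlapping ranges.

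Serine is converted to glycine by the hydroxymethyltransferases Shmt1 in the cytosol and Shmt2 in mitochondria. Shmt1 was at 73.4, 73.8 and 78.2 FPKM in Q-KO libraries, inside the wild-type values of 72.5, 52.6 and 95.3 FPKM. Its highest wild-type value was that of replicate 3, the library with higher chromosome 11 genes, and its log2 difference was 0.07 with that library and 0.28 without it. Shmt2 was at 63.8, 73.5 and 68.7 FPKM in Q-KO libraries and 94.5, 68.4 and 59.8 FPKM in wild-type libraries, again with overlap.

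Glycine is broken down in mitochondria by the glycine cleavage system, whose 4 subunits are encoded by Gldc, Amt, Gcsh and Dld. Gldc, the decarboxylase that opens the reaction, was at 30.3, 26.8 and 19.2 FPKM in Q-KO libraries, against 58.8, 44.9 and 64.6 FPKM in wild-type libraries. All Q-KO libraries were lower, with a log2 difference of -1.12 (SE 0.21) that stayed between -1.27 and -0.94 under the 14 alternative settings. The partner subunits did not show a difference of that size. Amt, the aminomethyltransferase, was at 72.2, 82.6 and 72.4 FPKM in Q-KO and 90.5, 67.6 and 69.9 FPKM in wild-type libraries. Gcsh, the lipoyl carrier protein, was at 121, 106 and 119 FPKM in Q-KO and 141, 117 and 108 FPKM in wild-type libraries. Both overlapped. Dld, the dehydrogenase shared with other mitochondrial complexes, was at 42.4, 39.1 and 42.0 FPKM in Q-KO and 48.0, 56.3 and 44.5 FPKM in wild-type libraries, with separate ranges and a log2 difference of -0.26 (SE 0.13).

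Carbon units on folate are handled by paralogs in 2 compartments. Mthfd1, the cytosolic enzyme, was at 106, 113 and 109 FPKM in Q-KO libraries, all above the 101, 82.3 and 78.5 FPKM of wild-type libraries (log2 difference 0.33, SE 0.14). Mthfd1l, the mitochondrial synthetase that releases formate, was at 22.9, 25.8 and 23.8 FPKM in Q-KO libraries, all below the 35.7, 31.6 and 29.6 FPKM of wild-type libraries (log2 difference -0.40, SE 0.13). The ratio of Mthfd1l to Mthfd1 within a library was 0.221 ± 0.007 in Q-KO and 0.371 ± 0.017 in wild-type libraries (SD, n = 3), with separate ranges. Since the 2 genes were separate in opposite directions, their ratio had to be separate too and adds no evidence. Mthfd2, the mitochondrial dehydrogenase that is high in embryonic and tumour cells, was at 44.3, 56.5 and 61.7 FPKM in Q-KO and 55.7, 68.5 and 51.4 FPKM in wild-type libraries and overlapped. Aldh1l1, the cytosolic formyltetrahydrofolate dehydrogenase that burns excess carbon units, was at 7.56, 8.70 and 10.8 FPKM in Q-KO libraries, below 13.5, 16.6 and 24.6 FPKM in wild-type libraries (log2 difference -0.91, SE 0.23). The largest wild-type value was that of replicate 3, and without it the difference was -0.69. Its mitochondrial paralog Aldh1l2 was at 0.966, 1.52 and 0.903 FPKM in Q-KO and 0.780, 1.05 and 0.584 FPKM in wild-type libraries, too low for the fit. The ratio of Shmt2 to Shmt1 (0.914 ± 0.070 in Q-KO, 1.08 ± 0.39 in wild-type libraries) overlapped between genotypes. So did that of Mthfd2 to Mthfd1 (0.495 ± 0.076 in Q-KO, 0.679 ± 0.142 in wild-type libraries). The ratio of Aldh1l2 to Aldh1l1 was separate the other way, at 0.129 ± 0.046 in Q-KO and 0.048 ± 0.021 in wild-type libraries, with Aldh1l2 at a low level. Aldh1l1 was already separate and Aldh1l2 was not, so this ratio adds no evidence beyond the Aldh1l1 difference.

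**Figure D2:**
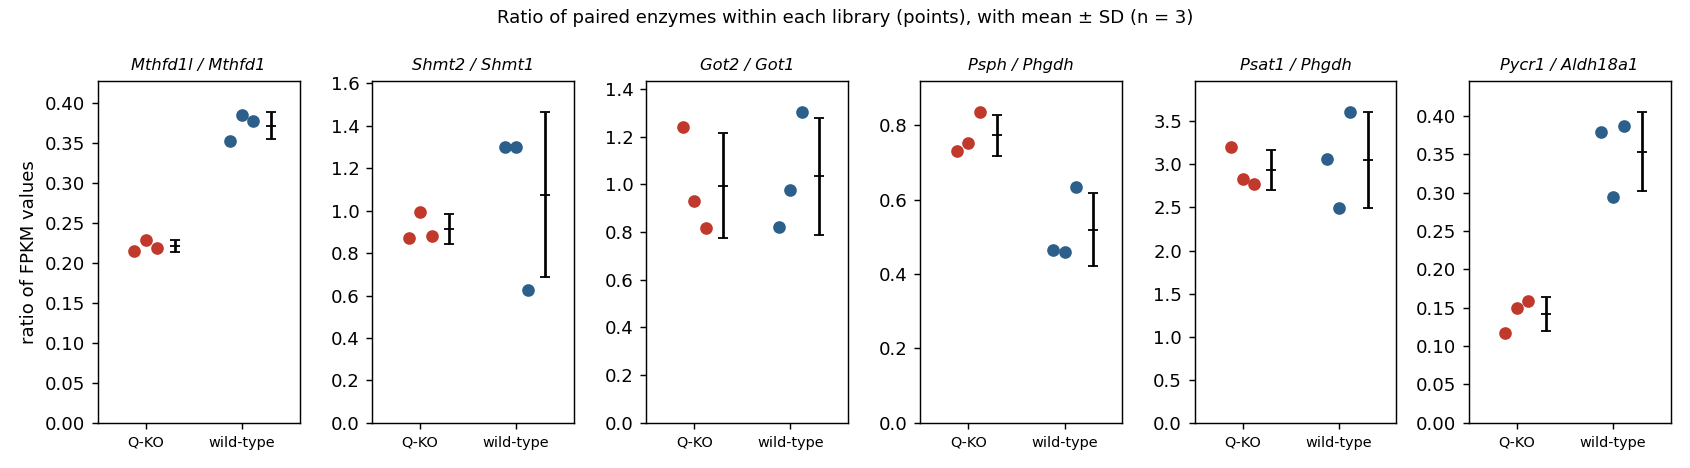
Ratio of the FPKM values of paired enzymes within each library, one panel per pair with its own axis from 0, with Q-KO libraries in red on the left, wild-type libraries in blue on the right, and mean ± SD (n = 3) in black. The ratios of Mthfd1l to Mthfd1, of Psph to Phgdh and of Pycr1 to Aldh18a1 are separate between genotypes, and those of Shmt2 to Shmt1, Got2 to Got1 and Psat1 to Phgdh overlap. Each separate ratio holds at least 1 gene that was already separate by itself, so it adds no evidence.

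In the methionine cycle, Mat2a, which makes S-adenosylmethionine, was at 139, 124 and 121 FPKM in Q-KO libraries, against 107, 116 and 116 FPKM in wild-type libraries. Its ranges were separate, but the log2 difference was 0.18 (SE 0.12), and 0.05 after median-of-ratios scaling. Ahcy, the hydrolase that clears S-adenosylhomocysteine, was at 175, 207 and 237 FPKM in Q-KO and 215, 203 and 268 FPKM in wild-type libraries. Mtr, methionine synthase, was at 16.3, 17.9 and 12.1 FPKM in Q-KO and 13.8, 11.5 and 12.03 FPKM in wild-type libraries. Both overlapped between genotypes.

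Proline is made from glutamate by Aldh18a1 and then by Pycr enzymes, and is broken down by Prodh. Pycr1, the mitochondrial reductase of the last step whose promoter is shown above, was at 2.156, 3.64 and 3.32 FPKM in Q-KO libraries and at 9.94, 7.78 and 8.76 FPKM in wild-type libraries. The highest Q-KO library was below the lowest wild-type library by more than the spread within either genotype, and the log2 difference was -1.30 (SE 0.19). It was -1.30 without wild-type replicate 3 as well, and -1.53 with a pseudocount of 0.1. Aldh18a1, the synthase that commits glutamate to proline and ornithine, was at 18.5, 24.3 and 20.8 FPKM in Q-KO and 26.2, 26.4 and 22.7 FPKM in wild-type libraries, and overlapped. The ratio of Pycr1 to Aldh18a1 was 0.142 ± 0.022 in Q-KO and 0.353 ± 0.051 in wild-type libraries. It adds no evidence beyond the Pycr1 difference, since Pycr1 was already separate and Aldh18a1 was not. Prodh, the dehydrogenase of the opposite direction, was also lower, at 2.25, 3.33 and 3.31 FPKM in Q-KO libraries against 6.004, 5.67 and 4.31 FPKM in wild-type libraries (log2 difference -0.68, SE 0.19). Pycrl, a reductase gene singled out once its values were known, was at 13.7, 15.1 and 16.4 FPKM in Q-KO and 13.9, 11.7 and 18.4 FPKM in wild-type libraries, with overlap.

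**Figure D3:**
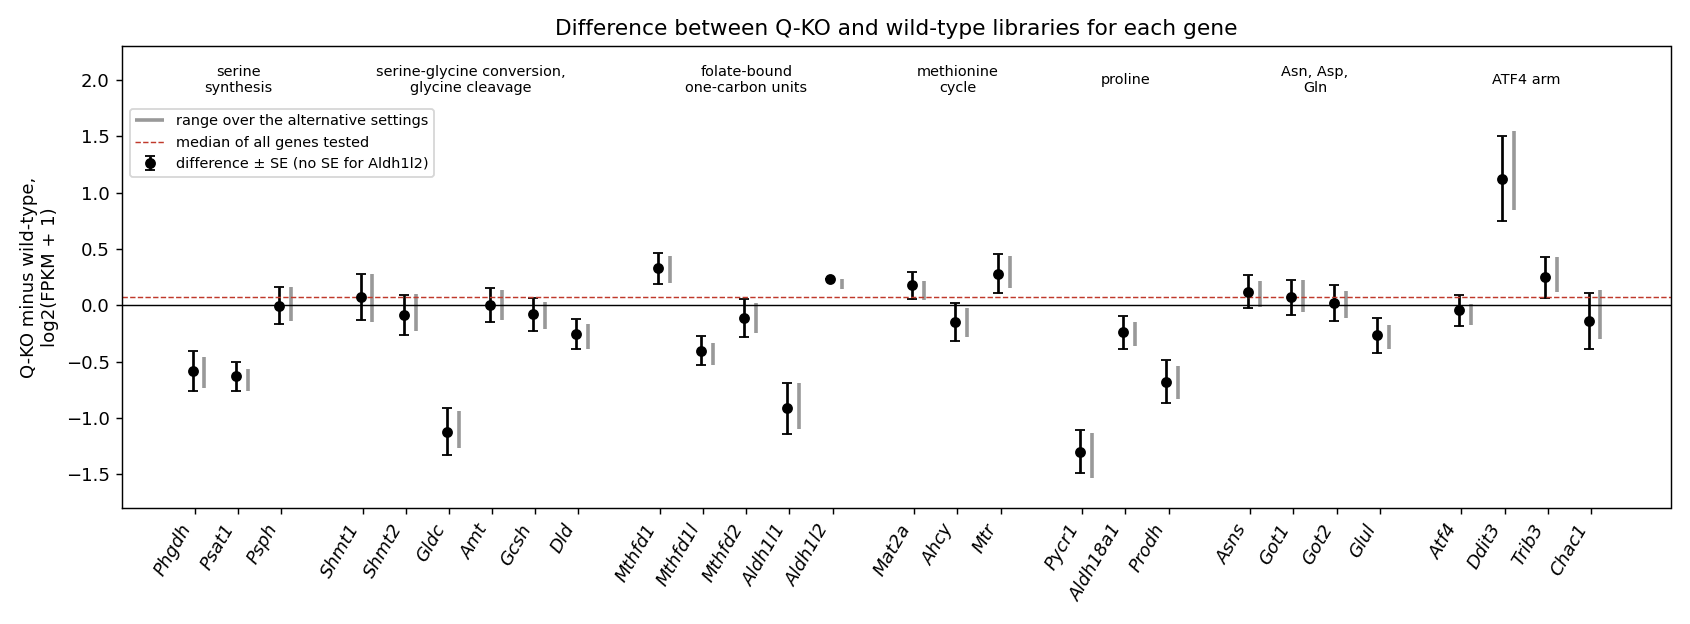
Difference between Q-KO and wild-type libraries for each gene on the log2(FPKM + 1) scale (black points with SE from limma, none for Aldh1l2), beside the range over the 14 alternative settings (grey bars; 13 for Prodh and 3 for Aldh1l2, which fell below the level filter in the others). Pycr1 (-1.30) and Gldc (-1.12) lie furthest below 0 and Ddit3 (1.12) furthest above, and the dashed line marks the median of all genes in the fit (0.07).

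Asns, asparagine synthetase and a classical ATF4 target, was at 464, 535 and 595 FPKM in Q-KO libraries and at 475, 511 and 475 FPKM in wild-type libraries. The groups overlapped, with a log2 difference of 0.12 (SE 0.15). Got1, the aspartate aminotransferase of the cytosol, was at 80.1, 85.2 and 87.0 FPKM in Q-KO and 99.2, 74.6 and 69.0 FPKM in wild-type libraries. Got2, that of mitochondria, was at 99.3, 79.2 and 70.9 FPKM in Q-KO and 81.5, 72.9 and 89.9 FPKM in wild-type libraries. Both overlapped. Glul, glutamine synthetase, was at 24.6, 21.9 and 18.9 FPKM in Q-KO and 26.9, 22.6 and 29.8 FPKM in wild-type libraries, again with overlap (log2 difference -0.26, SE 0.16).

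Atf4 itself was at 196, 201 and 247 FPKM in Q-KO libraries and 236, 216 and 210 FPKM in wild-type libraries (log2 difference -0.05, SE 0.14). ATF4 is controlled mostly at translation, which these data do not measure. Ddit3 was at 26.5, 48.7 and 48.8 FPKM in Q-KO libraries, against 14.4, 32.6 and 11.7 FPKM in wild-type libraries (log2 difference 1.12, SE 0.38). The groups overlapped, since wild-type replicate 2 was above Q-KO replicate 1. The difference was 1.54 without wild-type replicate 2 and 0.84 without wild-type replicate 3. Trib3, a pseudokinase that limits ATF4 activity, was at 13.3, 19.7 and 20.2 FPKM in Q-KO and 14.3, 13.4 and 15.9 FPKM in wild-type libraries. Chac1, which degrades glutathione, was at 5.07, 9.30 and 10.02 FPKM in Q-KO and 7.51, 10.5 and 8.41 FPKM in wild-type libraries. In Trib3, Chac1 and Ddit3 alike, Q-KO replicate 1 was the lowest Q-KO library.

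Other genes of the same pathways, which are not among the 28, were tested in the same fit across all genes. They were listed by function, but with earlier results of these data known. Of 105 such genes above the level filter, 2 rose and 0 fell (limma, Benjamini-Hochberg adjustment over all genes), where 4.06% of all genes passed. Before adjustment, p was under 0.05 for 12 that were higher and 10 that were lower in Q-KO libraries, and for 14.8% and 6.7% of all genes. One that passed was Slc46a1, the proton-coupled folate transporter, at 5.31, 6.87 and 7.51 FPKM in Q-KO libraries and 3.37, 3.63 and 3.36 FPKM in wild-type libraries (log2 difference 0.75, SE 0.17, limma adjusted p = 0.049). Also past the threshold was Atf5, a transcription factor of the ATF4 family and an ATF4 target, at 18.4, 28.03 and 25.4 FPKM in Q-KO libraries and 14.5, 11.2 and 11.1 FPKM in wild-type libraries (log2 difference 0.90, SE 0.19, limma adjusted p = 0.0425). Ranges were separate in both. Slc46a1 passed in 3 of the 14 alternatives (adjusted p 0.0423 to 0.222) and in none that left out a library; Atf5 passed in 5 (0.0329 to 0.200), of which 1 left out a library, Q-KO replicate 1.

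Of 17 other folate and glycine genes, 10 had a log2 difference above 0 and 7 below, with a median of 0.05; 59.3% of all genes were above 0. Tdh, the threonine dehydrogenase that feeds glycine synthesis in mouse ES cells and was singled out once its values were known, stood at 370, 317 and 310 FPKM in Q-KO and 324, 204 and 339 FPKM in wild-type libraries (log2 difference 0.23, limma adjusted p = 0.565). Gcat, of the same list, was also named after its values were seen. It was at 26.1, 28.3 and 38.9 FPKM in Q-KO and 47.0, 39.4 and 59.8 FPKM in wild-type libraries. Its ranges were separate, but it did not pass (log2 difference -0.63, limma adjusted p = 0.128). Folr1, likewise named after its values were seen, had the largest positive difference of this list. It was at 46.8, 47.3 and 64.3 FPKM in Q-KO and 31.4, 37.9 and 11.4 FPKM in wild-type libraries. The ranges of Folr1 were separate too, and it did not pass (log2 difference 1.09, limma adjusted p = 0.163). Of 15 other genes of the methionine cycle, transsulfuration and polyamines, 0 passed (limma, 1 with an unadjusted p under 0.05), with a median of 0.04; the most abundant was Odc1, the first enzyme of polyamine synthesis (182, 172 and 158 FPKM in Q-KO, 234, 164 and 114 FPKM in wild-type libraries). Of 12 other genes of proline, glutamate and asparagine, 0 passed (limma, 2 with an unadjusted p under 0.05), with a median of 0.07, and Ass1, argininosuccinate synthase, was the most abundant (170, 187 and 149 FPKM in Q-KO, 158, 125 and 101 FPKM in wild-type libraries).

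Of 21 other ATF4 targets, 10 had a difference above 0 and 11 below, with a median of -0.10, and Atf5 alone passed. The 12 listed aminoacyl-tRNA synthetases, which charge tRNAs with amino acids, are only part of that family, and many are ATF4 targets. Of these, 11 had a difference below 0, as did 40.7% of all genes. In 9 of these 12 every Q-KO library was below every wild-type library, against 9.44% of all genes, and in 1 it was the reverse. The median log2 difference was -0.32, against 0.07 over all genes. Nevertheless 0 of the 12 passed limma's test (8 had an unadjusted p under 0.05, 7 lower and 1 higher, against 6.7% and 14.8% of all genes). The most abundant, Gars, was at 151, 164 and 164 FPKM in Q-KO and 179, 179 and 139 FPKM in wild-type libraries and overlapped. Of 13 genes of eIF2 kinases and eIF2 regulators, which control ATF4 translation, 0 passed (limma, 0 with an unadjusted p under 0.05). Their median was 0.04, and the most abundant was Eif2b5 (154, 147 and 148 FPKM in Q-KO, 147, 134 and 96.0 FPKM in wild-type libraries). Of 15 genes of ER chaperones and the ATF6 and XBP1 branches, the other arms of the ER stress response, 11 had a difference above 0, as did 59.3% of all genes, with a median of 0.20. In 5 of these 15 every Q-KO library was above every wild-type library, against 18.2% of all genes, and in 1 it was the reverse. Calr, the chaperone calreticulin and the most abundant of these, was at 441, 418 and 442 FPKM in Q-KO and 362, 305 and 255 FPKM in wild-type libraries (log2 difference 0.51, limma adjusted p = 0.119), and 0 of the 15 passed (4 had an unadjusted p under 0.05, all higher, against 14.8% of all genes).

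**Figure D4:**
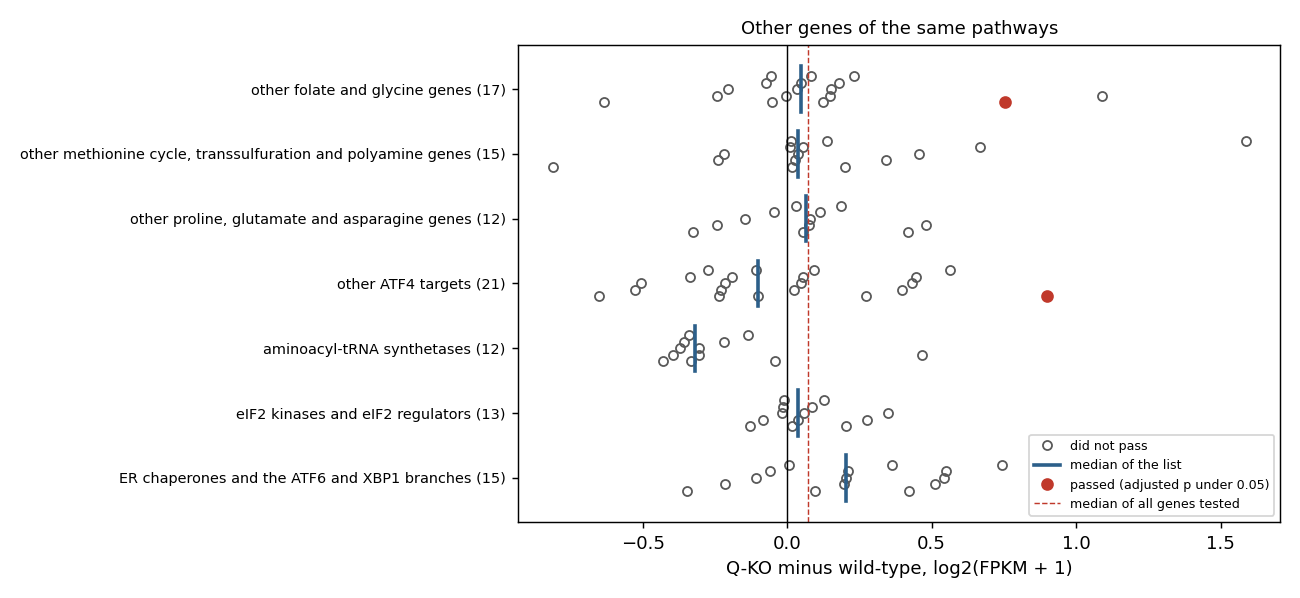
Difference between Q-KO and wild-type libraries on the log2(FPKM + 1) scale for other genes of the same pathways, 1 point per gene above the level filter, with list sizes in brackets and the median of each list in blue. Filled points passed limma's test (Slc46a1 and Atf5), and most of the listed aminoacyl-tRNA synthetases lie left of 0, with a list median of -0.32.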

How the data were processed

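The authors deposited 1 table of FPKM values per gene symbol for 3 Q-KO and 3 wild-type libraries. The build mm9, STAR 2.5, Cufflinks, bcl2fastq 2.16 and CASAVA stand in the submitters' processing notes without role or order. The annotation, the use of strand and the depth are not stated. The values come without fragment counts, so no interval was computed, and gene-level estimates can be uncertain where genes overlap or have close copies. Of the table, 1 stray header row was dropped, which left 24043 rows.

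Groups and replicate numbers came from the sample titles. The log2(FPKM + 1) values of the 11573 genes that averaged 1 FPKM or more were fitted with limma 3.58.1 in R 4.3.3 (eBayes with trend, two-sided, Benjamini-Hochberg over all genes, threshold 0.05), tested on simulated data. This scale understates changes of low genes. The members and the lists were chosen with earlier results of these data known. For the 28 members no p-value is given and their counts past the threshold are descriptions only; the SE is limma's. Named outside the 28 are, per list, up to 4 genes past the threshold, or else the most abundant tested gene; any other gene is marked as named after its values were seen. The alternatives changed the pseudocount (0.1), the level filter (none, or an average of 5 FPKM), the scaling (median of ratios, or quantiles), the variance model (robust, or without trend), the design (a block for the replicate number) and the libraries (each left out in turn).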

Additional observations from a re-analysis of the deposited data

How the results depend on the processing

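The same replicate number did not pair libraries (correlations of their deviations from the group means were -0.03, 0.01 and 0.02). With the replicate block, 333 genes passed, against 470 without it; of the 28 genes Aldh1l1 and Pycr1 were then past the threshold, and the related lists held 0 folate and glycine genes, 0 ATF4 targets and 1 methionine cycle gene. The total of genes past the threshold was 266 with a mean of at least 5 FPKM (188 higher, 78 lower). Median-of-ratios scaling moved the median of all genes from 0.07 to -0.04 and gave 228 rises and 182 falls (55.6% rises, against 74.9%), and quantile normalization gave 210 falls (54.0% rises). The median of the listed genes in the fit, -0.09 in the main fit, was -0.22 after median-of-ratios scaling and -0.13 after quantile normalization. It ran from -0.15 without Q-KO replicate 3 to -0.01 without wild-type replicate 1. Leaving out 1 library gave totals of 41 to 648, rises of 36 to 468 and falls of 5 to 180; the fewest came without Q-KO replicate 2. Of the 28 genes, 0 to 4 were then past the threshold: 0 without Q-KO replicate 2, Q-KO replicate 3 or wild-type replicate 1, and Phgdh joined Psat1, Gldc and Pycr1 without wild-type replicate 3. Psat1 was also not past it with no intensity trend, without Q-KO replicate 1, or in the fit that left out wild-type replicate 2. In that last fit Ddit3 was past it, higher in Q-KO, which happened in no other setting. Gldc was not past it with no filter on low values. The related folate and glycine list and the ATF4 target list, with 1 each, had 0 with no filter and after either scaling, the folate list also had 0 with a mean of at least 5 FPKM, and without 1 library they had 0 and 0 to 1. The sign of the difference held for 17 of the 28 genes in every alternative that gave a value (3 for Aldh1l2, 13 for Prodh, 14 for the others); for the other 11 (Psph, Shmt1, Shmt2, Amt, Gcsh, Mthfd2, Asns, Got1, Got2, Atf4 and Chac1) it turned in at least 1, up to 5 for Amt. The cause of these changes was not tested.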
